A study of Mus musculus with 4 samples.

Results

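The testis chaperones analysed here were 8 genes chosen by name, HSPA2, HSPA1L, HSPA4L, HSPH1, HSP90AA1, CLGN, CALR3 and PDILT, and all 8 were among the 25824 gene symbols of the tables. The symbols are written in capitals, as the tables give them. Single cell RNA-seq was made from the testes of 4 mice, with 1 library each, to compare spermatogenesis with and without the genome organizer CTCF. The 2 WT mice (C56BL/6J, Ctcf wt/wt) and the 2 Ctcf-cKO mice (C56BL/6J, Stra8-iCre-Ctcf f/Δ) were all 15 weeks old per the labels. The methods text gives an age of 12 to 15 weeks and other WT genotypes, including floxed alleles. In the Ctcf-cKO mice the Stra8 promoter drives the Cre recombinase, so that deletion of the floxed allele (f) begins in differentiating germ cells. It is not driven in somatic cells or stem cells, but the other allele is written Δ, for deleted. Somatic and stem cells of these mice may therefore hold 1 intact Ctcf allele, against 2 in WT mice labelled wt/wt. Filtrates of 2 tubes were pooled for the Ctcf-cKO genotype. The mice are called WT 1, WT 2, Ctcf-cKO 1 and Ctcf-cKO 3, after the labels.

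Chaperones help other proteins to fold, and male germ cells make versions of them that few other cells use. HSP70 proteins bind and release unfolded chains in a cycle that needs ATP, HSP110 proteins exchange their nucleotide, and HSP90 acts later on nearly folded clients. In the endoplasmic reticulum of germ cells, calmegin (CLGN), calsperin (CALR3) and PDILT take part in the maturation of ADAM proteins of the sperm surface, which are needed for sperm to reach and bind the egg.

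The 8 genes lie on 6 chromosomes of GRCm38, in the GENCODE annotation. HSPA2, the HSP70 of meiotic cells, is at chr12:76404176-76406938 on the plus strand. HSPA1L, an HSP70 of spermatids, is at chr17:34972703-34979285 on the plus strand, and 2387 bases of it overlap the antisense gene Gm10501. HSPA4L (chr3:40744495-40796103, plus strand) and HSPH1 (chr5:149614287-149636376, minus strand) encode HSP110 proteins. HSP90AA1, the inducible cytosolic HSP90, is at chr12:110690605-110702728 on the minus strand. CLGN (chr8:83389867-83428552, plus strand) and CALR3 (chr8:72424176-72443870, minus strand) are related to calnexin and calreticulin. PDILT, a testis member of the protein disulfide isomerase family, is at chr7:119486587-119523489 on the minus strand, overlaps Acsm5 on the other strand over 4027 bases and also Gm37518 and Gm26967. CALR3 overlaps the processed pseudogene Gm3835. Whether counting used the strand, and how reads that match several HSP70 genes were treated, is not given in the sources used here, so reads of overlapping genes cannot be told apart.

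RefSeq promoter windows of 300 bases on GRCm38.p6 (250 bases before the start and 50 after) were found for 6 of the 8 genes, not for CLGN and HSP90AA1. Of these, 4 are shown. HSPA2 fell and HSPA1L rose between the last stages, and PDILT peaked in between. HSPH1 is the heat-inducible gene, with too few counts to order the stages. The windows of HSPA4L and CALR3 are not shown. Capitals mark matches, on either strand, to heat shock element pairs (GAANNTTC or TTCNNGAA), the cAMP response element core TGACGT, the X-box (the motif of RFX factors) and the CCAAT box (CCAAT). The motifs were chosen after the sequences were seen.
HSPA2 chr12:76404120-76404419, plus strand: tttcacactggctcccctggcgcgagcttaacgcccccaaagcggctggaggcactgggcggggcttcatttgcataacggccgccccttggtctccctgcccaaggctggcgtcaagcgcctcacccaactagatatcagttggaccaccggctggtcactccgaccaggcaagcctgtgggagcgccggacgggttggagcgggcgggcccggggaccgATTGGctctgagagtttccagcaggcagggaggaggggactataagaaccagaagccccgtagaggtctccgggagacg
HSPA1L chr17:34972453-34972752, plus strand: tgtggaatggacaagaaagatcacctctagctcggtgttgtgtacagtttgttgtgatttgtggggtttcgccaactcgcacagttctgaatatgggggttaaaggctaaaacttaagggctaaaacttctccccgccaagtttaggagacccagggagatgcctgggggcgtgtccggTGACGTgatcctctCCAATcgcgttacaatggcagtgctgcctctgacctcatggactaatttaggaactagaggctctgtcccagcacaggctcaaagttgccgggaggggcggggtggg
PDILT chr7:119523433-119523732, minus strand: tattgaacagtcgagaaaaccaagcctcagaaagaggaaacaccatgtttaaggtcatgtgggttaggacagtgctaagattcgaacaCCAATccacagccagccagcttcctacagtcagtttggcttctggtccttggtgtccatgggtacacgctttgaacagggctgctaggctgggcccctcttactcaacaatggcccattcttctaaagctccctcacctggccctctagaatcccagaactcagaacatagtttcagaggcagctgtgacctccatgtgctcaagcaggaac
HSPH1 chr5:149636287-149636586, minus strand: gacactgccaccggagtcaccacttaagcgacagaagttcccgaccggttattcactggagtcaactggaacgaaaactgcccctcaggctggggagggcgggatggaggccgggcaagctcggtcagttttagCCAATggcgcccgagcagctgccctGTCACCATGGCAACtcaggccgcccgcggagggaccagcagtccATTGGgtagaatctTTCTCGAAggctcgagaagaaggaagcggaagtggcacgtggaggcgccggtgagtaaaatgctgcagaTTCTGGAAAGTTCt

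HSPH1 held 3 heat shock element pairs, TTCTCGAA from position -33, TTCTGGAA from 37 and GAAAGTTC from 42, and the last pair of matches overlap. Position 1 is the first transcribed base of the RefSeq window. A second RefSeq window of HSPH1, not printed, places the same matches at -54, 16 and 21. The printed window also held an X-box at -91 and 2 CCAAT boxes. No other of the 4 windows held a heat shock element pair, while 15.1% of all 32851 promoter windows of this length held at least 1. HSPA1L held TGACGT at -71, a motif of 7.51% of all windows, and a CCAAT box at -57. HSPA2 and PDILT held only a CCAAT box, at -29 and -162. A CCAAT box, with or without other motifs, was found in 37.4% of all windows, and the X-box in 1.29%. These matches are letters in a window and were not tested for binding. In the GENCODE annotation HSPA2, HSPH1 and PDILT start upstream of their RefSeq starts. The matches at -29 in HSPA2 and -33 in HSPH1 therefore lie within the GENCODE genes.

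The libraries held 6701235 (WT 1), 4859455 (WT 2), 2652665 (Ctcf-cKO 1) and 1593546 (Ctcf-cKO 3) counts, and 811 barcodes passed as cells (96, 241, 228 and 246). The WT libraries were deeper, with a median of 15357 and 8251 counts per cell against 4668 and 2338. CTCF was at 16.4 and 10.1 counts per 1000000 counts (CPM) in WT and at 1.51 and 4.39 CPM in Ctcf-cKO (log2 fold change -2.19, SE 0.67, edgeR adjusted p = 0.029). Clustering without the chaperone genes gave 62 spermatocyte-like cells (6, 32, 14 and 10 in the order of mice above), 205 round spermatid-like cells (15, 140, 39 and 11), 132 elongating spermatid-like cells (35, 25, 38 and 34) and 199 somatic-like cells, named from markers, while 213 cells stayed unnamed. The round spermatid-like class joins 3 clusters, and the mice drew on them unequally: cluster 2 held 0 of 15 cells of WT 1, 69 of 140 of WT 2, 25 of 39 of Ctcf-cKO 1 and 8 of 11 of Ctcf-cKO 3. Each library was compared by its counts summed over the cells of a class, so that mice and not cells are the replicates. A total of 2716 barcodes occurred in more than 1 library, of which 1 was among the cells.

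More of the 8 genes passed at the last step than at the one before. From round to elongating spermatid-like cells HSPA2, CLGN and HSP90AA1 fell and HSPA1L rose, and these 4 of 8 genes were the ones that passed an adjusted p of 0.05 (edgeR quasi-likelihood test with the mouse as a block, 12 sums), where 19.8% of 6910 genes tested passed (7.79% higher and 12.0% lower). From spermatocyte-like to round spermatid-like cells 1 of 8, PDILT, passed, where 15.4% of all genes passed (12.3% higher and 3.11% lower). The classes were made from other genes of the same cells, so many genes differ between them by construction.

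HSPA2, whose loss is known to arrest meiosis, had 2285, 1461, 1381 and 629 CPM in spermatocyte-like cells of WT 1, WT 2, Ctcf-cKO 1 and Ctcf-cKO 3. In round spermatid-like cells it had 963, 822, 895 and 1167 CPM, and in elongating spermatid-like cells 52.8, 224, 276 and 173 CPM. Elongating spermatid-like cells were the lowest in every mouse, and spermatocyte-like cells were above round spermatid-like cells in 3 of 4. HSPA2 fell by 1.99 on the log2 scale (SE 0.47, edgeR adjusted p = 0.0012) from round to elongating spermatid-like cells, a 3.97-fold lower level, and differed by -0.15 (SE 0.45, adjusted p = 0.88) at the step before. With clusters made without batch correction the fall did not pass (-1.86, adjusted p = 0.10), with 4 elongating spermatid-like cells in Ctcf-cKO 1.

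HSPA1L showed the opposite course. It had 77.3, 501, 565 and 755 CPM in spermatocyte-like cells, 390, 763, 748 and 426 CPM in round spermatid-like cells and 1669, 1295, 2029 and 1329 CPM in elongating spermatid-like cells. The lowest elongating value was above the highest value of the earlier stages. HSPA1L rose by 2.19 on the log2 scale (SE 0.49, edgeR adjusted p = 0.00062), a 4.58-fold change with TMM scaling. The CPM, which use library totals, rose less, from a mean of 582 ± 201 to 1581 ± 343 (SD, n = 4), and the same edgeR test with library totals gave 1.49 (SE 0.37, adjusted p = 0.0018). The difference at the earlier step, 0.74 (SE 0.48, adjusted p = 0.32), did not pass.

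Of the HSP110 genes, HSPA4L kept a narrow range of levels. It had 478, 517, 473 and 428 CPM in spermatocyte-like cells, 791, 655, 652 and 511 CPM in round and 789, 619, 742 and 533 CPM in elongating spermatid-like cells. Round spermatid-like cells were above spermatocyte-like cells in all 4 mice, yet with log2 differences of 0.82 (SE 0.43, edgeR adjusted p = 0.20) and then 0.66 (SE 0.42, adjusted p = 0.28) neither step passed. The CPM did not rise at the last step, with 2 of 4 mice higher and 2 lower, and with library totals the edgeR difference was 0.02 (SE 0.33, adjusted p = 0.98). HSPH1 stood at 0 to 51.1 CPM, on 0 to 60 counts a sum, too few to order the stages. Its 0 in spermatocyte-like cells of Ctcf-cKO 3 allows up to 75.5 CPM, counting 3 reads as the limit.

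HSP90AA1, needed for male meiosis, was uneven between mice. In spermatocyte-like cells it had 794.5 CPM in WT 1, 226 in WT 2, 39.5 in Ctcf-cKO 1 and 101 in Ctcf-cKO 3. In round spermatid-like cells it had 480, 44.7, 162 and 170 CPM. In elongating spermatid-like cells it had 35.6, 36.0 and 11.7 CPM in the first 3 mice and no count in Ctcf-cKO 3, where 0 counts allow up to 22.5 CPM. The last stage was the lowest in every mouse, and HSP90AA1 fell by 2.63 on the log2 scale (SE 0.64, edgeR adjusted p = 0.0018) from round to elongating spermatid-like cells, and by 3.30 (SE 0.65, adjusted p = 0.000148) with library totals. It did not pass with clusters made without batch correction (-2.03, adjusted p = 0.12), and without WT 2 it was -3.44 (adjusted p = 0.0023).

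The chaperones of the endoplasmic reticulum did not share 1 course. CLGN had 710, 699, 493 and 528 CPM in spermatocyte-like cells, 365, 435, 457 and 690 CPM in round and 19.8, 180, 58.3 and 75.1 CPM in elongating spermatid-like cells. It fell by 2.23 on the log2 scale at the last step (SE 0.48, edgeR adjusted p = 0.00049), a 4.71-fold lower level. CALR3 had 49.2, 84.2, 112 and 126 CPM in spermatocyte-like cells, 199, 173, 99.7 and 162 CPM in round and 248, 332, 206 and 173 CPM in elongating spermatid-like cells. CALR3 was higher in elongating than in round spermatid-like cells of all 4 mice, but its log2 differences of 1.15 (SE 0.52, edgeR adjusted p = 0.13) and 1.24 (SE 0.47, adjusted p = 0.051) did not pass. The first of these passed with barcodes above the knee (2.47, adjusted p = 0.0086), where WT 1 had 2 spermatocyte-like cells. It also passed with the study's number of cells (1.55, adjusted p = 0.035). It was 0.80 (adjusted p = 0.30) with library totals. The last of these differences passed in 5 alternative settings and was 0.57 (adjusted p = 0.37) with library totals.

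Among the germ classes PDILT was highest in round spermatid-like cells. It had 188, 94.9, 60.7 and 128 CPM there, against 21.1, 8.0, 26.3 and 0 CPM in spermatocyte-like cells and 21.1, 32.0, 0 and 45.1 CPM in elongating spermatid-like cells. The 0 values rest on sums that allow up to 75.5 CPM (spermatocyte-like, Ctcf-cKO 3) and 11.7 CPM (elongating spermatid-like, Ctcf-cKO 1). Each mouse had its highest PDILT level in round spermatid-like cells. PDILT rose by 3.12 on the log2 scale (SE 0.87, edgeR adjusted p = 0.0085) on entry to the round stage and differed by -1.73 (SE 0.77, adjusted p = 0.10) after it, or by -2.40 (adjusted p = 0.024) with library totals. Without WT 1 or WT 2 the rise was 2.82 (adjusted p = 0.10) and 2.43 (adjusted p = 0.20), and without Ctcf-cKO 1 it was 3.87 (adjusted p = 0.0095).

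**Figure D1:**
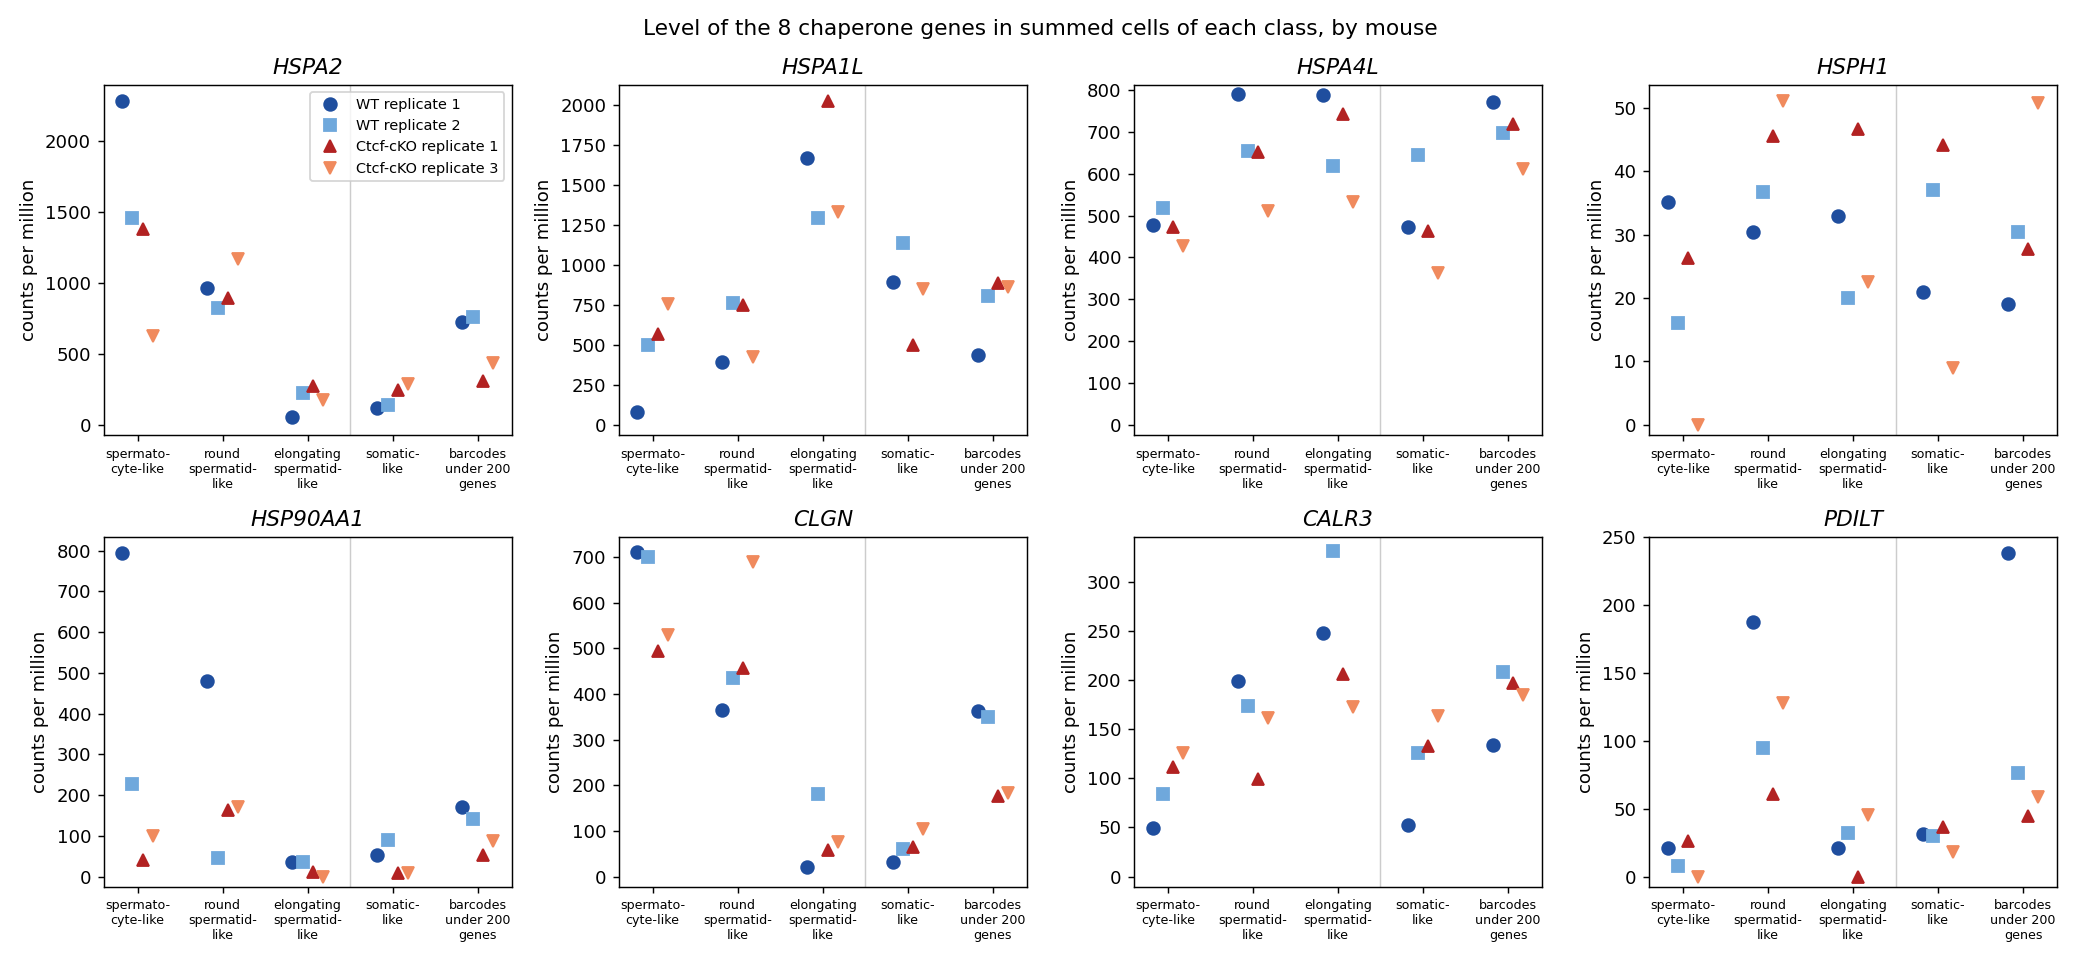
Level of each chaperone gene in CPM (linear axis) in the summed cells of each class and in barcodes under 200 genes, with 1 point per mouse (WT blue, Ctcf-cKO red and orange). HSPA2, HSP90AA1 and CLGN were lowest in elongating spermatid-like cells among the germ classes, HSPA1L was highest there at 1295 to 2029 CPM, and PDILT was highest in round spermatid-like cells.

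**Figure D2:**
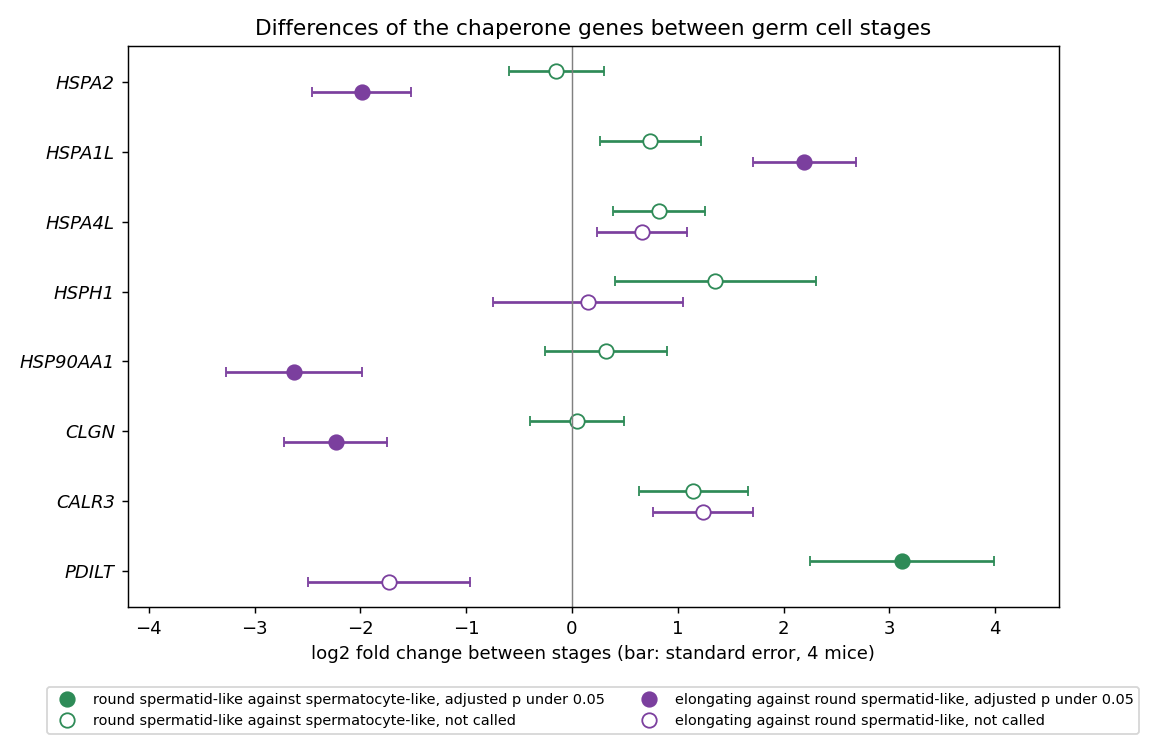
Log2 fold change of each chaperone gene between stages with its standard error (edgeR, 4 mice, mouse as a block), where filled points passed an adjusted p of 0.05. At the last step HSPA2, HSP90AA1 and CLGN lie between -2.63 and -1.99 and HSPA1L at 2.19.

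Levels within the round spermatid-like class are given for its clusters 2, 6 and 7 in WT 2 and Ctcf-cKO 1, the mice with at least 5 cells in each, and no test was made between clusters. PDILT had 60.3, 132 and 82.7 CPM in WT 2 and 27.3, 92.0 and 89.9 CPM in Ctcf-cKO 1, lowest in cluster 2 in both mice. HSP90AA1 had 35.2, 32.7 and 82.7 CPM in WT 2 and 59.1, 21.2 and 589 CPM in Ctcf-cKO 1, highest in cluster 7 in both. Cluster 7 had 10 round spermatid and 9 spermatocyte markers higher than in other cells, and it holds 8 of the 15 round spermatid-like cells of WT 1. HSPA1L had 935, 607 and 769 CPM in WT 2 and 909, 991 and 49.9 CPM in Ctcf-cKO 1, so these mice did not share an order.

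Free RNA in the droplets bears on these levels. Barcodes under 200 genes, which hold mostly free RNA, had 724, 759, 312 and 433 CPM of HSPA2 and 438, 806, 888 and 860 CPM of HSPA1L. They held 104983, 590328, 1081040 and 748090 counts in WT 1, WT 2, Ctcf-cKO 1 and Ctcf-cKO 3. The free level of WT 1 thus rests on the fewest counts, and the cut takes unlike parts of the libraries. HSPA2 and CLGN were above the free level of the same mouse in spermatocyte-like and round spermatid-like cells (1.01 to 4.43 times), in all 4 mice. In elongating spermatid-like cells they were below it (0.055 to 0.89 times), in all 4 mice. HSPA1L was above the free level in elongating spermatid-like cells (1.55 to 3.81 times) and below it at both earlier stages (0.18 to 0.95 times). HSPA4L was at 0.62 to 1.03 times the free level in every germ class, so that its counts in single cells do not stand out from free RNA. CALR3 was below the free level in spermatocyte-like cells of all 4 mice (0.37 to 0.68 times). It was above that level in 1 of 4 mice in round (0.51 to 1.49 times) and 3 of 4 in elongating spermatid-like cells (0.94 to 1.86 times). HSP90AA1 was above it in 3 of 4 mice in spermatocyte-like (0.75 to 4.63 times) and in round spermatid-like cells (0.31 to 3.08 times). In elongating spermatid-like cells HSP90AA1 was below it in all 4 (0 to 0.25 times). PDILT in spermatocyte-like and elongating spermatid-like cells was also below the free level in all 4 mice, and in round spermatid-like cells it was above it in 3 of 4, at 0.79 times the free level in WT 1 and 1.25 to 2.17 times in the others.

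Shares of cells with a count were taken after each cell was thinned to 1000 counts. HSPA2 was seen in 50%, 65.6%, 71.4% and 40% of spermatocyte-like cells and in 0%, 16%, 21.1% and 14.7% of elongating spermatid-like cells of WT 1, WT 2, Ctcf-cKO 1 and Ctcf-cKO 3. The 0 of 35 cells of WT 1 has an exact 95% upper limit of 10% at that depth, while 20 of these cells (57.1%) held an HSPA2 count before thinning, at a median of 22713 counts. HSPA1L was seen in 0%, 46.9%, 50% and 40% of spermatocyte-like cells, in 20%, 50%, 53.8% and 9.1% of round and in 65.7%, 52%, 76.3% and 44.1% of elongating spermatid-like cells. Its share was highest at the last stage in every mouse, but the exact 95% intervals of round and elongating spermatid-like cells overlapped in all 4. In macrophage-like cells, which should lack both genes, the shares were 25%, 11.1% and 8.0% for HSPA2 and 75%, 22.2% and 40% for HSPA1L in WT 2, Ctcf-cKO 1 and Ctcf-cKO 3, on 4, 9 and 25 cells with median depths of 11216, 6030 and 2738 counts. Elongating spermatid-like cells of these mice had medians of 7961, 4834 and 2298 counts. The exact intervals of these background shares are wide. For HSPA2 they take in all 3 germ classes of WT 2, round and elongating spermatid-like cells of Ctcf-cKO 1 and elongating spermatid-like cells of Ctcf-cKO 3. The shares above them were those of spermatocyte-like cells of both Ctcf-cKO mice and of round spermatid-like cells of Ctcf-cKO 3. For HSPA1L the share above the interval was that of elongating spermatid-like cells of Ctcf-cKO 1, and round spermatid-like cells of Ctcf-cKO 3 were below it. WT 1 had no macrophage-like cell. Means over the 4 mice for HSPA2 were 56.8% in spermatocyte-like, 59.1% in round and 12.9% in elongating spermatid-like cells, and for HSPA1L 34.2%, 33.2% and 59.5%. Without thinning the means were 88.2%, 85.9% and 46.2% for HSPA2 and 68.2%, 75.7% and 85.5% for HSPA1L.

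In the whole libraries, 4 of the 8 chaperones were lower in Ctcf-cKO (HSPA2, CLGN, HSP90AA1 and PDILT) and 0 were higher, where 10.1% of the 14552 genes tested were lower and 18.4% higher (28.5% in all, edgeR adjusted p under 0.05). Whole-library sums use every barcode, and in them fewer cells of a type and less RNA per cell cannot be told apart. The genotypes did not overlap for 7 of the 8 genes, and for 68.2% of all genes tested.

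HSPA2 had 890 and 857 CPM in WT and 466 and 447 CPM in Ctcf-cKO, a log2 fold change of -0.87 (SE 0.17, edgeR adjusted p = 0.0028), or 1.83-fold lower. HSP90AA1 had 404.7 and 131 CPM in WT and 60.7 and 60.9 CPM in Ctcf-cKO, a log2 fold change of -2.06 (SE 0.39, edgeR adjusted p = 0.0027), and the WT mice differed from each other more than for any other member. The HSP90AA1 value was -1.10 (adjusted p = 0.0039) without WT 1 and -2.67 (adjusted p = 4.47e-11) without WT 2. CLGN had 409 and 448 against 215 and 200 CPM, a log2 fold change of -0.98 (SE 0.19, edgeR adjusted p = 0.0026), or 1.98-fold lower. PDILT had 123 and 66.3 against 40.7 and 46.4 CPM, a log2 fold change of -1.05 (SE 0.31, edgeR adjusted p = 0.023). Without Ctcf-cKO 1, which leaves 1 mouse in that arm, 0 of the 4 genes passed, with values close to those above and larger errors (HSPA2 -0.92, SE 0.30, CLGN -1.06, SE 0.32, HSP90AA1 -2.08, SE 0.59, and PDILT -0.97, SE 0.43). Without Ctcf-cKO 3 only HSP90AA1 passed (-2.07, adjusted p = 0.043). PDILT did not pass without WT 1 (-0.61, adjusted p = 0.19), and all 4 stayed lower in each case.

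HSPA1L lay the other way, with 595 and 745 CPM in WT and 909 and 887 CPM in Ctcf-cKO, but its log2 fold change of 0.48 (SE 0.18, edgeR adjusted p = 0.065) did not pass. HSPA4L had 810 and 677 against 642 and 517 CPM (log2 fold change -0.29, SE 0.18, edgeR adjusted p = 0.26). HSPH1 had 34.5 and 35.8 against 37.3 and 37.7 CPM (0.16, SE 0.30, edgeR adjusted p = 0.74). CALR3 was the one gene whose genotypes overlapped, with 133 and 174 against 155 and 164 CPM (0.12, SE 0.22, edgeR adjusted p = 0.73). An interval of 2 SE around the CALR3 difference runs from -0.32 to 0.55.

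**Figure D3:**
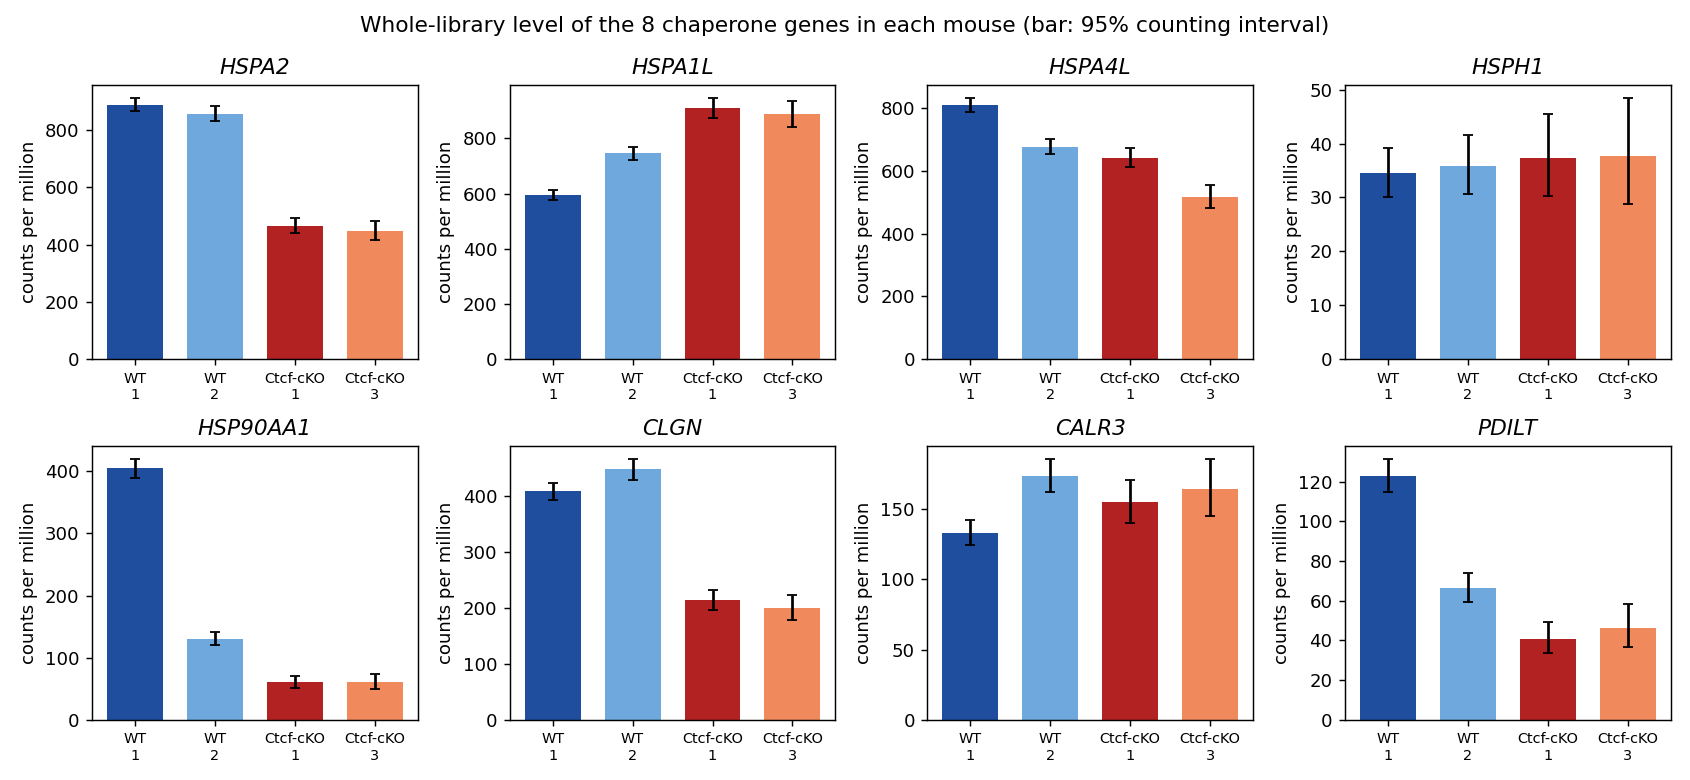
Whole-library level of each chaperone gene in CPM for each mouse, with bars from 0 and exact 95% counting intervals. HSPA2 and CLGN were close within each genotype and lower in Ctcf-cKO (466 and 447 against 890 and 857 CPM for HSPA2), HSPA1L was higher there, and HSP90AA1 and PDILT were highest in WT 1.

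Markers of cell types moved with these whole-library differences. Of the spermatocyte markers 14 of 27 tested were lower in Ctcf-cKO and 0 higher (summed level 3636 and 3728 CPM in WT, 2199 and 2121 CPM in Ctcf-cKO). Of the round spermatid markers 17 of 27 were lower (11622 and 11635 against 8709 and 8409 CPM), and of the elongating spermatid markers 4 of 25 were lower and 1 higher (91257 to 125261 against 124754 to 127154 CPM). All 12 Leydig markers (240 to 606 against 5564 to 6202 CPM), all 14 Sertoli markers tested (182 to 402 against 3084 to 3244 CPM) and 13 of 14 macrophage markers (148 to 356 against 3858 to 4034 CPM) were higher, with 4 of the macrophage markers at 0 in WT 1. The part of cell makeup in the 4 lower members was not tested. In barcodes under 200 genes HSPA2, CLGN, HSP90AA1 and PDILT were lower in both Ctcf-cKO mice than in both WT mice and HSPA1L was higher. So 5 of 8 members did not overlap, where 51.3% of the 12861 genes with at least 10 counts there did not. These barcodes were 1367 of 5603 in WT 1 and 4392 of 6474 in WT 2, but 5592 of 5919 and 6114 of 6407 in Ctcf-cKO 1 and Ctcf-cKO 3. They are unlike parts of the libraries.

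Within the germ classes no member passed for genotype. In simulated sums these tests recovered 0 (spermatocyte-like), 6 (round) and 28 (elongating) of 100 genes changed by 2 on the log2 scale. A gene that did not pass may therefore still differ. In spermatocyte-like cells 6 members could be tested and 0 passed in edgeR or DESeq2. There 0.947% of 3694 genes passed in edgeR and 88 of 3694 in DESeq2. In round spermatid-like cells 8 were tested and 0 passed in either tool, where edgeR passed 0 of 6375 genes (0.0%) and DESeq2 5, while 222 had an unadjusted edgeR p under 0.05. In elongating spermatid-like cells 5 were tested and 0 passed in either tool. There 4.07% of 3049 genes passed in edgeR (3.94% higher, 0.131% lower) and 153 of 3049 in DESeq2. With all germ classes joined, 8 were tested and 0 passed in edgeR or DESeq2. There 1.84% of 9270 genes passed in edgeR (1.82% higher and 0.0216% lower) and 265 of 9270 in DESeq2. Of the 19 tests of a member in these 3 classes, 1 had an unadjusted p under 0.05, HSP90AA1 in spermatocyte-like cells. The summed Leydig markers in spermatocyte-like cells were 169 and 216 CPM in WT and 9606 and 6216 CPM in Ctcf-cKO, so RNA of somatic cells differed between genotypes in these sums too. Elongating spermatid markers there were at 26921 and 87906 CPM in WT and 79703 and 74314 CPM in Ctcf-cKO. In round spermatid-like cells they were at 39114 and 123816 CPM in WT and 83976 and 37526 CPM in Ctcf-cKO. The part of these markers' RNA in the HSPA1L values below was not tested.

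HSPA2 in spermatocyte-like cells differed by -0.76 on the log2 scale (SE 0.55, edgeR adjusted p = 0.89), in round spermatid-like cells by 0.11 (SE 0.32, adjusted p = 0.999) and in elongating spermatid-like cells by 0.79 (SE 0.60, adjusted p = 0.64). HSPA1L differed by 1.14 (SE 0.78, adjusted p = 0.88), -0.06 (SE 0.51, adjusted p = 0.999) and 0.12 (SE 0.29, adjusted p = 0.93). CLGN differed by -0.41 (SE 0.46, adjusted p = 0.95), 0.39 (SE 0.37, adjusted p = 0.999) and -0.51 (SE 0.88, adjusted p = 0.89). None of these passed the test. On the CPM scale the genotypes did not overlap for the 6 members tested in spermatocyte-like cells (42.3% of all genes tested there), for 4 of 8 in round spermatid-like cells (32.1%; HSPA4L, HSPH1, CLGN and CALR3) and for 1 of 5, CALR3, in elongating spermatid-like cells (45.2%). In the cells of the unnamed clusters 3 of 8 did not overlap, where 46.0% of genes with at least 10 counts there did not. Single mice moved several of these values: without WT 1 and without WT 2, CLGN in elongating spermatid-like cells was at -1.49 and 1.44, HSPA2 there at -0.01 and 1.83, HSPA1L there at 0.34 and -0.26, HSPA1L in round spermatid-like cells at -0.62 and 0.67, and HSPA1L in spermatocyte-like cells at 0.21 and 3.10. HSPA2 in spermatocyte-like cells was at -1.94 without Ctcf-cKO 1 and -0.25 without Ctcf-cKO 3.

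HSP90AA1 had the largest difference of the members within the 3 germ classes, -2.97 in spermatocyte-like cells (SE 0.84, edgeR unadjusted p = 0.0064, adjusted p = 0.21), with both Ctcf-cKO mice below both WT mice on 113, 113, 6 and 4 counts. It passed without WT 2 (-3.63, adjusted p = 0.012) and without Ctcf-cKO 3 (-3.44, adjusted p = 0.0081), and it was -2.02 (adjusted p = 0.999) without WT 1 and -2.64 (adjusted p = 0.14) without Ctcf-cKO 1. In round spermatid-like cells the difference was -0.62 (SE 0.85, adjusted p = 0.999), with WT 2 the lowest mouse and WT 1 the highest, and it was 1.60 without WT 1 and -1.49 without WT 2. CALR3 was lower in both Ctcf-cKO mice at both spermatid stages (-0.65, SE 0.43, adjusted p = 0.999, and -0.64, SE 0.35, adjusted p = 0.46), and higher in both in spermatocyte-like cells (0.83, SE 0.87, adjusted p = 0.95). PDILT could be tested in round spermatid-like cells (-0.73, SE 0.53, adjusted p = 0.999). HSPA4L differed by -0.07, -0.36 and -0.20 and HSPH1 by 0.41 in round spermatid-like cells, with adjusted p of 0.87 to 0.999.

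The difference between genotypes did not itself pass as different between stages for any of the 8 members, where edgeR passed 0 of 6910 genes for round against spermatocyte-like cells (0.0%, 217 at an unadjusted p under 0.05) and 1 for elongating against spermatocyte-like cells (0.0145%). These interaction terms were not run in DESeq2. HSP90AA1 had the lowest unadjusted p of the members, at 0.014, for a difference of 2.79 (SE 1.13) between round spermatid-like and spermatocyte-like cells. HSPA1L came next, at -1.94 (SE 1.01, unadjusted p = 0.054) between elongating spermatid-like and spermatocyte-like cells, and that value was -4.01 (adjusted p = 0.00034) without WT 2 and 0.079 without WT 1. WT 1 had 6 spermatocyte-like cells with 11 HSPA1L counts.

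**Figure D4:**
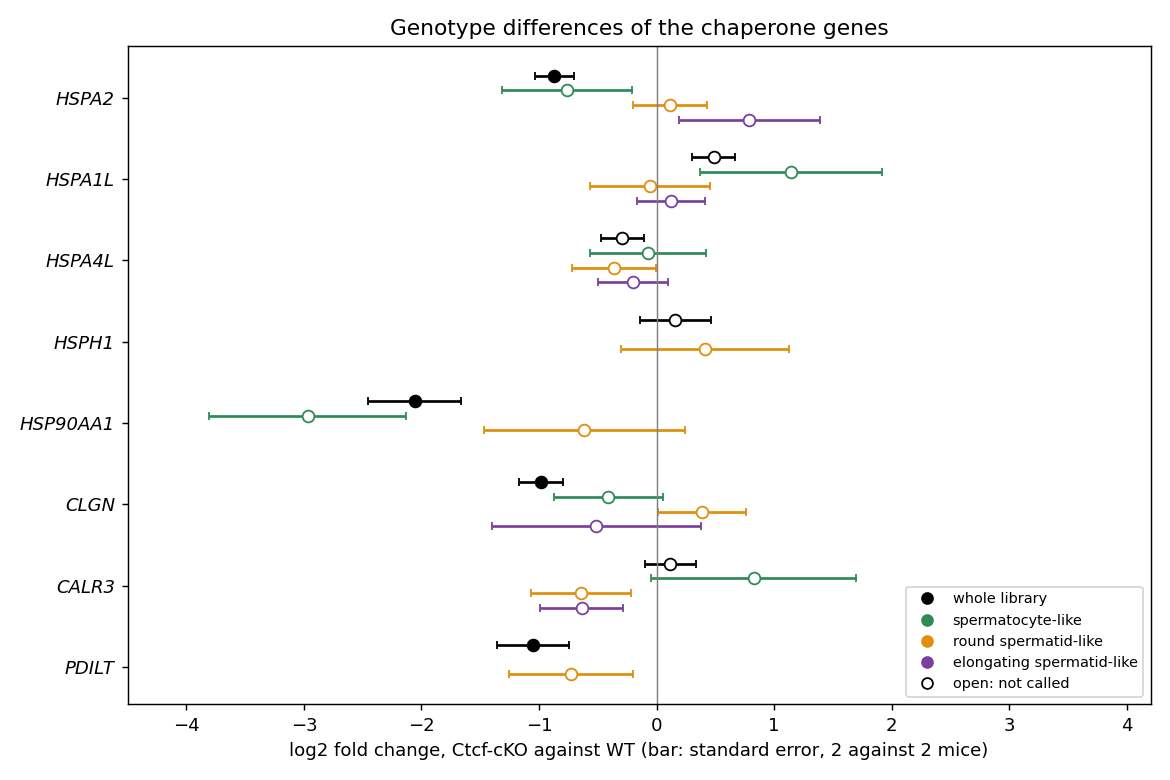
Log2 fold change of each chaperone gene, Ctcf-cKO against WT, with its standard error (edgeR, 2 against 2 mice), in whole libraries and in each germ class, for genes with enough counts, where filled points passed an adjusted p of 0.05. The whole-library values of HSPA2, HSP90AA1, CLGN and PDILT passed and lie between -2.06 and -0.87, while no value within a class passed.

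The somatic-like class held 11, 18, 70 and 100 cells of WT 1, WT 2, Ctcf-cKO 1 and Ctcf-cKO 3, and the mice filled its clusters unequally. Its Leydig cluster held 7, 0, 35 and 43 cells and its Sertoli cluster 1, 10, 16 and 16. Its macrophage cluster held 0, 4, 9 and 25 cells and its fibroblast cluster 3, 4, 10 and 16. In somatic-like cells, where deletion of the floxed allele is not driven, 0 of 6 members tested passed for genotype in edgeR or DESeq2. There edgeR passed 0 of 4378 genes (0.0%) and DESeq2 3, while 345 had an unadjusted edgeR p under 0.05. HSPA2 was at 116, 141, 242 and 288 CPM there, below the free RNA level of the same mouse in all 4. HSPA1L was at 893, 1139, 502 and 847 CPM, above its round spermatid-like level in 3 of 4 mice, and at 0.57 to 2.04 times the free level, above it in both WT mice. In these somatic-like sums the elongating spermatid markers were at 109963, 238476, 98891 and 131135 CPM. In round spermatid-like sums of the same mice they were at 39114, 123816, 83976 and 37526 CPM. The part of spermatid RNA in the somatic-like HSPA1L level was not tested. HSP90AA1 was at 52.5, 88.8, 7.8 and 8.9 CPM on 5, 12, 3 and 3 counts (log2 fold change -3.12, SE 1.01, edgeR adjusted p = 0.56).

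The genes whose levels ran most like a member's over the 12 sums of 3 germ classes in 4 mice are named by Pearson's r of log2(CPM + 10), among 5835 genes, as a description. The sums share mice and depth. HSPA2 ran most like TBPL1 (0.98), which is on the spermatocyte marker list, ACYP1 (0.98) and WBP11 (0.97). CLGN ran most like ATXN2L (0.98), ART3 (0.98) and CFAP36 (0.97), and HSPA1L most like AK1 (0.98), CSNK1G2 (0.97) and GM11634 (0.97). For the other members the highest values were 0.95 for CALR3 with PSMA6, 0.94 for PDILT with 4933424G06RIK, 0.94 for HSPA4L with 1700040K01RIK, 0.94 for HSP90AA1 with GM12346 and 0.94 for HSPH1 with OXCT1. Between members, HSPA2 and CLGN had 0.94, HSPA2 and HSP90AA1 0.71, HSPA1L and CALR3 0.76, and HSPA2 and HSPA1L -0.81.

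Genes of other chaperone lists are given beside the members. From round to elongating spermatid-like cells 9 of 101 listed genes tested were higher and 15 lower (23.8%), where 7.79% of all genes were higher and 12.0% lower (19.8%). From round to elongating spermatid-like cells 6 of 32 co-chaperones tested were higher and 3 lower (median log2 fold change -0.02, against -0.34 over all genes), among them the J protein DNAJB8 (2.64) and the HSP70 cofactor BAG1 (1.94) upward and the cyclophilin PPID (-4.28) and the HSP90 cofactor TTC4 (-1.94) downward. Of 19 folding factors of the endoplasmic reticulum 0 were higher and 2 lower (median -0.78), the thioredoxin-like TMX2 (-4.39) and TMX4 (-2.51). Of 14 chaperonin subunits and mitochondrial chaperones 0 were higher and 2 lower (median -0.93), HSPA9 (-1.57) and CCT7 (-1.18). Of 6 heat shock factors and their partners 3 were lower and 0 higher, HSFY2 (-3.61), HSF2 (-3.37) and HSF5 (-1.48). Of 4 small heat shock proteins ODF1, a sperm tail protein and a marker used to name the class, was higher (1.44) and HSPB11 lower (-3.69). Of 6 other cytosolic HSP70, HSP90 and HSP110 genes 0 passed in either direction.

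At the step before, 11 of the 101 listed genes were higher and 6 lower (16.8%), where 12.3% of all genes were higher and 3.11% lower (15.4%). There 4 of the 32 co-chaperones were higher and 0 lower (median -0.09, against 0.18 over all genes), DNAJC5B (2.21), DNAJA4 (1.75), DNAJB7 (1.68) and DNAJB13 (1.67). Of the 19 folding factors of the endoplasmic reticulum 5 were lower and 0 higher (median -1.06), led by the disulfide isomerase P4HB (-3.28), SDF2L1 (-3.04), PDIA6 (-1.92) and the HSP90 protein HSP90B1 (-1.85), at the step at which PDILT rose. Summed Leydig markers were at 9606 and 6216 CPM in spermatocyte-like but 2148 and 707 CPM in round spermatid-like sums of Ctcf-cKO 1 and Ctcf-cKO 3. In WT they were at 169 and 216 CPM, then 91.2 and 171 CPM. The part of somatic RNA in these folding factors was not tested. HSFY2 rose (4.69) and ODF1 rose (1.29), and 0 of 6 other cytosolic HSP70, HSP90 and HSP110 genes and 0 of 14 chaperonin and mitochondrial genes passed. Among 21 partners and clients of the members, which were not left out of the clustering, 5 were higher and 1 lower, with the sperm hyaluronidase SPAM1 at 4.54, ADAM6A at 3.19, ADAM4 at 2.59 and TEX101, a marker used to name the spermatocyte-like class, at -3.74. At the last step 2 of these 21 were higher and 4 lower, with SPAM1 at -4.34, the transition protein genes TNP2 at 3.41 and TNP1 at 3.31, both markers used in naming, and SYCP1, a marker as well, at -2.89.

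For genotype in whole libraries, 20 of 123 listed genes tested were higher in Ctcf-cKO and 21 lower (33.3%), where 18.4% of all genes were higher and 10.1% lower (28.5%). Of these, 8 of 27 folding factors of the endoplasmic reticulum were higher and 2 lower (median 0.20, against -0.04 over all genes), with TXNDC5 at 3.18, UGGT1 at 2.53, PDIA5 at 2.44 and PPIB at 2.22. Of 8 other cytosolic genes 2 were higher and 1 lower, with HSPA14 at 1.82 and HSP90AB1, the constitutive partner of HSP90AA1, at 1.70 (139 and 119 CPM in WT, 382 and 419 CPM in Ctcf-cKO) and HSPBAP1 at -1.11. Of 16 chaperonin and mitochondrial genes 2 were higher and 4 lower, with HSPD1 at 2.44, HSPE1 at 2.09, CCT4 at -1.03 and TCP1 at -0.89. Of 37 co-chaperones 3 were higher and 2 lower, with BAG2 at 3.11, FKBP5 at 1.63, STUB1 at 1.32 and TTC4 at -1.38. Of 7 small heat shock proteins 3 were higher, HSPB8 (5.72), CRYAB (3.44) and HSPB1 (2.83). Of 6 heat shock factors and their partners 4 were lower and 0 higher (-1.20 to -0.87), the factors HSF2, HSFY2 and HSF5 and the HSF2-binding protein HSF2BP. Of 23 partners and clients 8 were lower and 2 higher, with SPAM1 at -1.51, ADAM2, a client of CLGN, at -1.44 (323 and 258 against 99.1 and 105 CPM), CCNB1 at -1.10 and ADAM1B at -1.07. ADAM3, a client of CLGN, CALR3 and PDILT, was at 1032 and 715 against 486 and 514 CPM (log2 fold change -0.74, SE 0.19, edgeR adjusted p = 0.014). Leydig, Sertoli and macrophage markers were higher in the same Ctcf-cKO libraries, as given above. The part of cell makeup in the listed genes was not tested.

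Within elongating spermatid-like cells, where no member passed, 4 of 60 listed genes tested passed (6.67%, against 4.07% of all genes). HSPA9 (3.97), PPIB (3.81), HSP90AB1 (3.21) and HSPA5 (2.88) were higher in Ctcf-cKO (edgeR adjusted p of 0.038 to 0.046). In the same sums the Leydig markers were at 29.0 and 87.9 CPM in WT and 2216 and 2704 CPM in Ctcf-cKO, and their part in these 4 was not tested. In spermatocyte-like and round spermatid-like cells 0 genes of the other lists passed for genotype, with 0.947% and 0.0% of all genes passing there, as above.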

How the data were processed

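The authors isolated cells in ddSEQ droplets, made 3′ libraries and aligned reads to GRCm38. Counts as deposited are whole numbers per gene symbol and barcode, not normalized. The counting tool, and whether reads of one molecule were merged, is not given in the sources used here, so intervals and limits for 0 cover counting error only. Of the non-zero entries 84.4% to 90.3% were 4 or less, and 11.5% in WT but 23.1% and 30.0% in Ctcf-cKO were exactly 4.

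The 8 members, the other lists and the tests were chosen with earlier results of these data known. Barcodes with 200 to 7000 genes, at most 10% mitochondrial counts and at least 3 times the plateau of their library (the median count at ranks 301 to 1000) were kept. No doublet caller was run. Seurat 5.3.0 (2000 variable genes without chaperones, 15 components, resolution 0.9) and a rewritten Harmony (theta 2, sigma 0.1) gave 11 clusters, named by at least 3 markers. The unnamed clusters were led by haemoglobin genes or by none.

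Counts were summed per mouse and class (at least 5 cells) and compared by quasi-likelihood tests in edgeR 4.0.16 (R 4.3.3) after filterByExpr and TMM scaling, with Benjamini-Hochberg adjustment over all genes. Stages were tested with the mouse as a block. Standard errors were taken as the size of the log2 fold change over the root of its F value. An exact permutation test of 2 against 2 mice cannot go below p = 0.333 and was not used. DESeq2 1.42.0, other scalings, filters and cell limits, other clusterings, subtraction of free RNA and leaving out each mouse were alternatives, and dividing each entry by 4 and rounding up was added after seeing the data. Scripts were tested on simulated sums in which 100 genes were changed by 2 on the log2 scale. For genotype the tests recovered 0 in spermatocyte-like, 6 in round, 28 in elongating and 53 in whole-library sums. With all germ classes joined 0 were recovered. For elongating against round spermatid-like cells 17 were recovered, and for genotype by stage (elongating against spermatocyte-like) 0. Named genes of other lists are up to 4 per list and contrast past the threshold, by size of change. Genes were placed with GENCODE M21, and promoter windows are from RefSeq.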

Additional observations from a re-analysis of the deposited data

Results flagged for a closer look

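The 213 cells of the unnamed clusters entered no comparison between classes. In them HSPA1L was higher in both Ctcf-cKO mice (1119 and 1148 CPM) than in both WT mice (987 and 1061 CPM), and HSPH1 likewise, at 63.8 and 54.2 CPM against 25.4 and 8.9 CPM, on 15, 10, 9 and 1 counts. HSP90AA1 was lower in both Ctcf-cKO mice (12.8 and 21.7 CPM against 73.5 and 107 CPM), and the other 5 members overlapped. Of the 7326 genes with at least 10 counts in these cells, 46.0% did not overlap between genotypes. The first 2 were singled out because both Ctcf-cKO mice lay above both WT mice in cells left out of the class comparisons, though whole-library sums include them, and no difference was tested in these cells. The mice filled the unnamed clusters unequally. Cluster 0 held 25, 3, 50 and 70 cells of WT 1, WT 2, Ctcf-cKO 1 and Ctcf-cKO 3, and cluster 4 held 4, 23, 17 and 21. Mean HSPA1L over 3 libraries was 1167 CPM in cluster 0 and 904 CPM in cluster 4. Mean HSPH1 was 53.2 and 17.4 CPM. The part of this makeup in the differences was not tested.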

How the results depend on the processing

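In the whole libraries the 4 lower members kept their direction in every alternative run. None of the 4 passed without Ctcf-cKO 1 and 1, HSP90AA1, passed without Ctcf-cKO 3, where the lone mouse is assumed to vary like the others, so the number called ran from 0 to 6 with a mouse left out. The log2 fold changes then ran from -0.92 to -0.85 for HSPA2 (adjusted p 0.082 without Ctcf-cKO 1, 0.095 without Ctcf-cKO 3), -1.11 to -0.92 for CLGN (0.062 and 0.077), -1.44 to -0.61 for PDILT (0.17 and 0.10, and 0.19 without WT 1) and -2.67 to -1.10 for HSP90AA1 (0.050 without Ctcf-cKO 1). HSPA1L passed with at least 10 counts in every library (0.53, adjusted p = 0.048), with counts divided by 4 (0.70, 0.025) and without WT 2 (0.66, 8.05e-05), and HSPA4L without WT 2 (-0.42, 0.015).

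For round against spermatocyte-like cells 0 of 4 members tested were called with at least 10 counts in every library, where 76 of 522 genes were. With barcodes above the knee 2 members were called (840 of 6444 genes), and 2 with the study's number of cells (1253 of 8421 genes). CALR3 joined in both, at 2.47 and 1.55. Above the knee WT 1 had 2 spermatocyte-like cells. Without WT 1 and without WT 2 the members called were 0 (569 of 6074 and 378 of 4807 genes). Without Ctcf-cKO 1 and without Ctcf-cKO 3 they were 1 (623 of 6171 and 1115 of 8379 genes). PDILT ran from 2.43 to 3.87 with a mouse left out. The split of all genes was 849 higher and 215 lower with TMM, 582 and 359 with size factors and 554 and 356 with library totals. For elongating against round spermatid-like cells with no batch correction, HSPA2 was at -1.86 (adjusted p = 0.10) and HSP90AA1 at -2.03 (0.12). Ctcf-cKO 1 had 4 elongating spermatid-like cells in that setting. The members called at this step were then 2, where 439 of 6689 genes were called, against 1367 of 6910 as reported. The median of all genes there moved from -0.34 to -0.96 with library totals (538 higher and 829 lower against 290 and 1581), which brought PDILT past the threshold (-2.40). PDILT also passed with barcodes above the knee (-3.93), the study's number of cells (-2.02) and counts divided by 4 (-1.47). CALR3 passed with DESeq2, size factors, resolution 1.3, counts divided by 4 and without Ctcf-cKO 3 (1.14 to 1.38), and HSPA4L with DESeq2 (0.68). For genotype in all germ cells joined, HSP90AA1 was at -1.15 as reported (adjusted p = 0.42), where 171 of 9270 genes were called. Leaving out a mouse leaves 1 in its genotype. HSP90AA1 was then at -1.79 without WT 2 and at 0.08 without WT 1. It was at -1.35 without Ctcf-cKO 1 and at -1.06 without Ctcf-cKO 3. Such values for spermatocyte-like cells, and for elongating against spermatocyte-like cells by genotype, are given above. Shares of cells without thinning are printed with the thinned ones: 88.2%, 85.9%, 46.2%, 68.2%, 75.7% and 85.5%. Of 843 values of members not past the threshold in either fit, 85 changed sign. The causes were not tested.

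Numbers of genes called ranged, over settings other than leaving out a mouse, from 0 to 88 in spermatocyte-like cells (35 as reported), 0 to 42 in round (0), 0 to 670 in elongating (124), 1 to 772 in all germ cells (171), 0 to 14 in somatic-like cells (0), 3153 to 4742 in whole libraries (4150), and 76 to 1357 (1064) and 271 to 1871 (1367) for the stage steps. With a mouse left out they ran from 55 to 150 in spermatocyte-like, 2 to 75 in round, 16 to 152 in elongating, 170 to 643 in all germ and 1 to 825 in somatic-like cells (825 without WT 1), 1710 to 4444 in whole libraries, 378 to 1115 and 777 to 1269 for the stage steps, and, for genotype by stage, 0 to 11 in round (0) and 0 to 148 in elongating (1) against spermatocyte-like cells. The alternative mitochondrial limit kept the same cells and gives no separate values. No paired analysis was made, because the labels name no pairs of mice between genotypes. With 2 mice a genotype, and 4 to 113 counts behind some class values, differences of several fold could go uncalled.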
